A study of Mus musculus with 13 samples.

Results

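The colon was compared with the ileum in mice that drank vancomycin, an antibiotic against Gram-positive bacteria, to find which regional differences in gene expression exist while those bacteria are suppressed. The comparison used 6 of the 13 arrays of the study, 3 labelled as colon and 3 as ileum of vancomycin-treated mice, with replicate numbers 11, 13 and 14 in both tissues. All groups shared the host and the tumour: FVB females bearing a mammary carcinoma of the same strain, made to express human HER2. Vancomycin was given in the drinking water at 200 mg/L, starting at 4 weeks of age. The end point was 9 weeks, which may mean age or time on the drug, and tumours then measured 150 mm3. The other 7 arrays, 4 of colon and 3 of ileum from tumour-bearing mice without antibiotic, entered the same model and served to show where the tissue difference under vancomycin departed from that of untreated mice. The samples were washed tissue and not sorted cells, bacteria were not measured here, and the labels do not say that arrays of a group came from separate mice. The p-values therefore measure the spread between these samples, which may be technical.

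The ileum is the last stretch of the small intestine. Its villus cells digest and take up peptides, sugars, fats and bile acids, and Paneth cells at the base of its crypts secrete antimicrobial defensins. The colon has no villi, salvages water, sodium and short-chain fatty acids, and is covered by a thick layer of mucin. Position along the gut is kept by transcription factors of the Hox, Cdx and Gata families.

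Values are log2 RMA expression values, 1 per probe set and array, and a difference is always colon minus ileum, so a positive number is higher in colon. A difference of 1 is nominally a doubling, but 437 of the 28846 probe sets held a value above 16, the limit of a 16-bit scanner on this scale, so differences are read on the deposited scale. Across the 19572 probe sets with exactly 1 gene symbol, 2961 (15.1%) passed an adjusted p of 0.05 in limma. Of these, 1459 (7.45%) were higher in colon and 1502 (7.67%) in ileum, and 1600 (8.17%) also differed by at least 1, 667 (3.41%) towards the colon and 933 (4.77%) towards the ileum. The 3 colon and 3 ileum values did not overlap for 5365 probe sets (27.4%). The median difference over all probe sets was 0.04, and array medians lay between 7.98 and 8.14. The first principal component held 70% of the variance of the 6 arrays and separated the tissues. Ileum replicate 11 stood apart, with a mean correlation of 0.9773 with the other arrays of its group against 0.9867 for replicate 13 and 0.9833 for replicate 14. Where leaving it out ended the call of a gene named here, this is said beside the gene. A fit of the 6 arrays alone and a fit with the replicate number as a block were also made, and a call of a gene named here that either of them ended is given as lost.

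The labels were checked against genes that define each region. Car1, a carbonic anhydrase of colonic surface cells, read 16.52, 16.05 and 16.29 in colon replicates 11, 13 and 14 and 6.48, 6.4 and 6.6 in the ileum arrays, a difference of 9.79 (SE 0.29, adjusted p = 3.23e-11). Hoxb13, the most posterior gene of the Hoxb cluster, read 12.35, 13.19 and 12.88 in colon and 5.31, 5.36 and 5.4 in ileum (7.45, SE 0.41, adjusted p = 1.43e-08). Insl5, a peptide of colonic L cells, read 15.18, 14.7 and 15.38 in colon and 8.57, 8.61 and 8.35 in ileum (6.58, SE 0.22, adjusted p = 6.29e-11). All 3 colon arrays lay far above all 3 ileum arrays for each of these genes. Slc10a2, the apical bile acid transporter of the terminal ileum, ran the other way, with 7.75, 8.17 and 8.05 in colon and 15.13, 16.09 and 16.17 in ileum (-7.81, SE 0.33, adjusted p = 9.88e-10). Gata4, which marks the proximal small intestine, differed by -0.29 (adjusted p = 0.614). No detection calls were used, so a low value is not read as absence.

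The largest differences towards the colon after Car1 belonged to genes of several roles. Cyp2d34, a cytochrome P450, read 15.95, 16.19 and 16.58 in colon and 7.27, 7.73 and 6.68 in ileum (9.01, SE 0.24, adjusted p = 1.43e-11). Lpo, which encodes lactoperoxidase, an enzyme that makes antibacterial oxidants from hydrogen peroxide, read 15.41, 15.49 and 14.88 in colon and 7.24, 6.5 and 6.43 in ileum, a difference of 8.54 (adjusted p = 3.23e-11). Aqp8, a water channel, was at 13.61, 15.27 and 16.07 in colon and 6.65, 6.83 and 7.65 in ileum, 7.94 apart (SE 0.46, adjusted p = 2.53e-08). Its colon values spread widely, with replicate 11 lowest, and stayed clear of the ileum values. The remaining genes among the 12 largest were the phosphate-linked sugar transporter Slc37a2 (7.77), Nxpe2 (7.69), the acute-phase gene Saa1 (7.45), Hoxb13, Nxpe5 (7.33), Hoxa11os (7.27), the water channel Aqp4 (7.25) and the transglutaminase Tgm3 (7.24). Hoxa11os is antisense to Hoxa11, and the sources used here do not say whether its probes tell the strands apart.

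The largest differences towards the ileum were of the brush border, of lipid export and of Paneth cells. Naaladl1, a brush border peptidase, had the largest difference of all 19572 probe sets, with 4.04, 4.38 and 4.8 in colon and 15.1, 16.02 and 16.23 in ileum (-11.38, SE 0.30, adjusted p = 1.43e-11). Cubn, which encodes cubilin, which takes up vitamin B12 bound to intrinsic factor, read 6.62, 6.26 and 7.46 in colon and 16.47, 16.91 and 17.1 in ileum (-10.05, SE 0.46, adjusted p = 2.1e-09). Apoa1, an apolipoprotein, was at 5.41, 6.32 and 6.81 in colon and 15.13, 16.08 and 16.33 in ileum (-9.67, SE 0.36, adjusted p = 2.77e-10). For all 3 genes ileum replicate 11 was the lowest ileum array. Defa34, a Paneth cell defensin, was at 3.76, 4.09 and 4.2 in colon and 15.16, 13.24 and 12.92 in ileum (-9.76, SE 0.54, adjusted p = 1.54e-08), and here replicate 11 was the highest ileum array. The others were the Bcl-2 family gene Bcl2l15 (-8.74), sucrase-isomaltase Sis (-8.67), the aminopeptidases Anpep (-8.56) and Enpep (-8.49), the basolateral bile acid exporter subunit Slc51a (-8.51), the defensins Defa3 and Defa17 (both -8.36) and Mttp (-8.28), which loads lipid onto apolipoprotein B. Defa3 and Defa17 had identical values on every array and cannot be counted as separate measurements. Members of near-identical families (Defa, Gsdmc, Reg3, Saa, Nxpe, Clca4, Btnl, Cyp3a) may share signal.

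**Figure D1:**
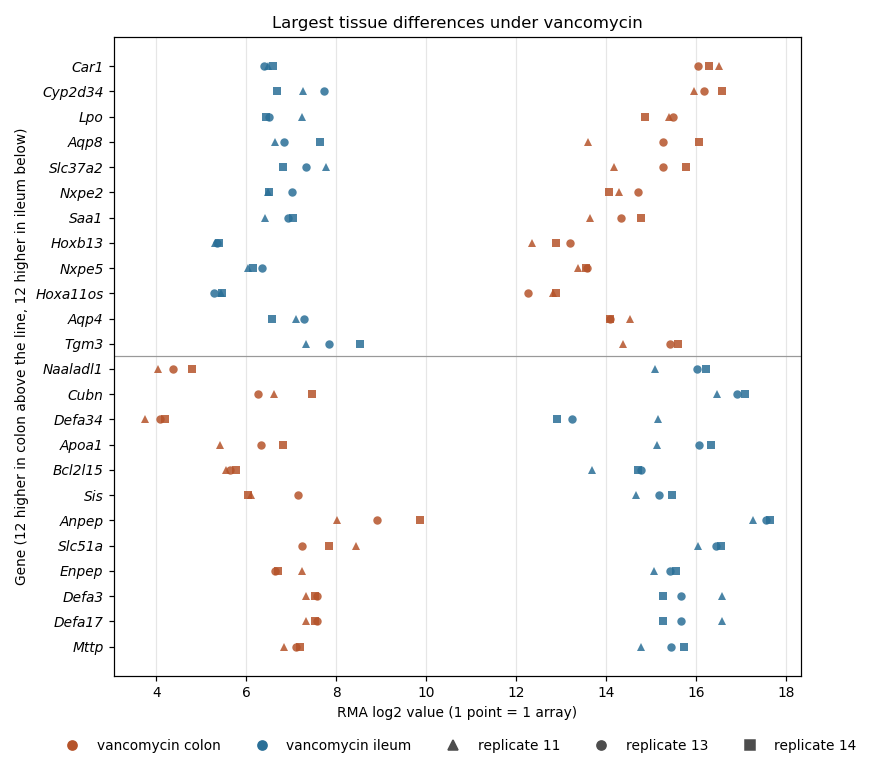
RMA log2 value (x axis) of the 12 largest differences in each direction (y axis) on the 6 vancomycin arrays, 1 point per array, with colour for tissue and shape for replicate number. Only probe sets whose tissues did not overlap were eligible, so the separation of every gene was set by that choice. Values run from Naaladl1 at 4.04 to 4.8 in colon and 15.1 to 16.23 in ileum to Car1 at 16.05 to 16.52 in colon and 6.4 to 6.6 in ileum.

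Promoter sequence is shown for Lpo and Cubn, the largest differences towards colon and ileum among genes with an entry in the RefSeq promoter table (Car1, Cyp2d34 and Naaladl1 are named only), and for Sis and Slc10a2, chosen after their values were seen because letters of a searched motif stand in them. Each run holds the bases just before the start of the gene, 5′ to 3′ on the gene's strand, from RefSeq on GRCm38.p6, with motif letters in capitals. The positions are chr11:87826115-87826364 (minus strand) for Lpo, chr2:13491877-13492126 (minus) for Cubn, chr3:72967864-72968113 (minus) for Sis and chr8:5105288-5105537 (minus) for Slc10a2.
Lpo: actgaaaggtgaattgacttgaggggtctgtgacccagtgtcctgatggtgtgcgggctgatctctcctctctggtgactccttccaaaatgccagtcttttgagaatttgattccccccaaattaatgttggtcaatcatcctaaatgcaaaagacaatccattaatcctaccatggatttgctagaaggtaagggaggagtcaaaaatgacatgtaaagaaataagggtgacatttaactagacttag
Cubn: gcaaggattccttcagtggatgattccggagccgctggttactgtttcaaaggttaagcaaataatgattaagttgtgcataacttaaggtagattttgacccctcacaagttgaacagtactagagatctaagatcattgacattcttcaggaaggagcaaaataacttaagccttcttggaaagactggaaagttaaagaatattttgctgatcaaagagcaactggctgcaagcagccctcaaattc
Sis: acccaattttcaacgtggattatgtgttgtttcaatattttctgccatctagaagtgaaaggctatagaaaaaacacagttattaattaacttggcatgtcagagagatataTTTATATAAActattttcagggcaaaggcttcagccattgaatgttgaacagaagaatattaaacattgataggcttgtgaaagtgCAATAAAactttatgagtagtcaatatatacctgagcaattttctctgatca
Slc10a2: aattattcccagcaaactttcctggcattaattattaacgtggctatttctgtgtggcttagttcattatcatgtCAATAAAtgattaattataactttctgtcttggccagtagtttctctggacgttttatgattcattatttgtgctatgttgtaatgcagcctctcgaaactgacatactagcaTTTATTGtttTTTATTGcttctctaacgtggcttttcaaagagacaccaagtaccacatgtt
In Sis the capitals mark CAATAAA, a letter string bound by CDX and posterior HOX proteins, 52 bases before the start, and TATAAA overlapping its reverse complement TTTATA further upstream. In Slc10a2 they mark CAATAAA 175 bases before the start and its reverse complement, TTTATTG, at 62 and 52 bases. Cubn and Lpo held none of the strings searched.

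Most motif strings were about as frequent before the genes of either region as before all measured genes. The strings were searched on both strands in the bases before the start of 15691 of the 19505 genes, of 525 of the 666 genes higher in colon by at least 1 and of 723 of the 935 higher in ileum. CAATAAA was found before 3.61% of all genes, 2.86% of the colon genes and 3.18% of the ileum genes. The GATA string AGATAA was found before 9.01%, 7.05% and 7.33%, and TATAAA before 12.2%, 11.6% and 12.4%. The HNF4 string CAAAGTCCA was found before 0.421% of all genes, 1.14% of the colon genes (6 genes) and 1.66% of the ileum genes (12 genes). These shares are descriptions of letters, not of binding, and the median GC content was 56% before all genes, 58% before the colon genes and 57.6% before the ileum genes.

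Hox genes differed by cluster. Of 33 measured, 10 were higher in colon and 6 in ileum, with a list median of 0.28. Of the 8 Hoxa genes, 6 were higher in colon and 0 in ileum, and of the 7 Hoxd genes 3 and 0. Of the 9 Hoxc genes, 0 were higher in colon and 2 in ileum. Of the 9 Hoxb genes, Hoxb13 was higher in colon and Hoxb3, Hoxb5, Hoxb6 and Hoxb8 in ileum. Hoxa10 was at 12.58, 11.86 and 11.81 in colon and 7.28, 7.44 and 7.02 in ileum, 4.84 apart (SE 0.22, adjusted p = 2.41e-09). Hoxc8 was at 5.22, 4.7 and 4.85 in colon and 10.79, 9.09 and 8.67 in ileum (-4.59, SE 0.41, adjusted p = 2.7e-06), and was -3.96 without ileum replicate 11, its highest array. Hoxc6 (-2.91) and Hoxb6 (-3.81) were likewise higher in ileum, and Hoxd10 (3.68) in colon.

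Of 24 other gut transcription factors, 7 were higher in colon and 5 in ileum. Gata5, a factor of the small intestinal epithelium, was at 5.67, 6.03 and 5.44 in colon and 9.7, 11.52 and 11.34 in ileum (-5.14, SE 0.42, adjusted p = 9.67e-07). Maf (-3.83), Isx (-4.07), which represses carotenoid uptake genes, Hnf4g (-2.41) and the lipid regulator Creb3l3 (-2.44) were also higher in ileum. The forkhead factors Foxa2 (2.48) and Foxa1 (1.19), the Wnt effector Tcf7l2 (1.71), Sox9 (1.34) and Cdx1 (0.68) were higher in colon. Cdx2, the intestinal master regulator, differed by -1.16 and did not pass the test (adjusted p = 0.223). It passed with colon replicate 11 left out, at -1.82 (adjusted p = 0.0368).

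Enzymes and transporters of the absorptive surface lay towards the ileum. Of 22 brush border hydrolases and receptors, 18 were higher in ileum and 1 in colon, with a list median of -4.13 against 0.04 for all genes. Sis, which splits sucrose, read 6.11, 7.16 and 6.03 in colon and 14.67, 15.17 and 15.47 in ileum. Alpi, the intestinal alkaline phosphatase (-7.08), Mme, a neutral endopeptidase (-6.37), Xpnpep2 (-5.87), trehalase Treh (-5.39) and Amn (-4.28), the membrane partner of cubilin, were all higher in ileum, while Mgam, which completes starch digestion (-2.30), and Dpp4 (-2.89) differed less. Lactase Lct differed by -0.19 (adjusted p = 0.893). The 1 gene higher in colon was the sialidase Neu3 (1.32, adjusted p = 0.034), which lost its call in the fit of the 6 arrays alone (adjusted p = 0.0507) and without colon replicate 13 (0.995) or 14 (1.29), or ileum replicate 13 (1.24) or 14 (1.21).

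Nutrient transporters followed the hydrolases, with 16 of 26 higher in ileum, 4 in colon and a median of -2.34. Slc6a19, the main neutral amino acid carrier, was at 8.53, 9.23 and 9.4 in colon and 16.05, 16.75 and 16.82 in ileum (-7.49, SE 0.31, adjusted p = 7.25e-10). The cystine and dibasic amino acid carrier Slc3a1 with Slc7a9 (-6.92 and -5.19), Slc6a20a (-5.95), the phosphate carrier Slc34a2 (-5.05), the fructose carrier Slc2a5 (-4.13) and the glucose carrier Slc5a1 (-2.74) were higher in ileum. Slc6a14, a broad amino acid carrier, went the opposite way, with 13.92, 14.4 and 13.73 in colon and 6.86, 6.99 and 7.58 in ileum (6.87, SE 0.64, adjusted p = 3.5e-06). Its tissues did not overlap. The other genes higher in colon were the lysosomal amino acid exporter Slc36a1 (2.83), the iron exporter Slc40a1 (1.87) and the folate carrier Slc46a1 (0.92), the last of which lost its call in the fit of the 6 arrays and without colon replicate 13 or 14 or ileum replicate 13 or 14 (0.713 to 0.948).

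Of 23 genes of fat absorption and lipoprotein assembly, 18 were higher in ileum and 0 in colon, with a median of -3.91. Npc1l1, the cholesterol uptake receptor, was at 5.79, 6.15 and 6.56 in colon and 13.12, 14.92 and 15.19 in ileum (-8.24, SE 0.43, adjusted p = 8.74e-09). The cholesterol efflux pair Abcg5 (-7.88) and Abcg8 (-5.05), Apob (-5.87), the triglyceride synthesis enzyme Dgat1 (-4.55), the fatty acid carrier Slc27a4 (-4.34) and Cd36 (-3.91) took the same side. Among the 9 fatty acid binding proteins, 6 were higher in ileum and 0 in colon, from Fabp6 (-6.96) through Fabp1 (-3.36) and Fabp2 (-2.40) to Fabp7 (-0.81), which lost its call without colon replicate 14 (adjusted p = 0.051). Retinoid genes showed 5 of 13 higher in ileum, among them Aldh1a1 (-2.64), Lrat (-2.49) and Rdh7 (-2.10), which make retinoic acid and store retinol. Cholesterol synthesis gave 0 of 16 higher in colon and 2 in ileum, Stard4 (-1.41) and Pmvk (-1.33). Both lost the call in the fit of the 6 arrays (adjusted p = 0.0531 and 0.0863). Over all probe sets 7.45% were higher in colon and 7.67% in ileum, so these counts are not read as a result about the list. The count in ileum moved with single arrays as well. It was 0 without colon replicate 11 or ileum replicate 14 and 1 without colon replicate 14 or ileum replicate 13. It was 5 without colon replicate 13 or ileum replicate 11.

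Several bile acid genes were far higher in ileum than in colon. Fgf15, the hormone that bile acids induce in the ileum through the receptor encoded by Nr1h4, was not. Fabp6, the ileal bile acid binding protein, was at 9.63, 11.51 and 12.43 in colon and 18.18, 18.19 and 18.07 in ileum (-6.96, SE 0.77, adjusted p = 2e-05), with values near the top of the scale in ileum. The exporter subunits Slc51a (8.44, 7.25 and 7.84 in colon, 16.04, 16.45 and 16.57 in ileum) and Slc51b (10.14, 9.91 and 9.78, against 14.84, 15.62 and 15.85) and the canalicular-type exporter Abcc2 (-6.47) stood with Slc10a2. Nr1h4 differed by -1.19 (adjusted p = 0.00164). In all, 6 of 14 genes were higher in ileum and 2 in colon, the exporter Abcc3 (1.93) and the co-receptor Klb (1.87), and Klb lost its call in the fit of the 6 arrays and without colon replicate 13 or 14 or ileum replicate 13 (1.42 to 1.65). Fgf15 was at 5.16, 5.29 and 5.43 in colon and 5.64, 6.54 and 5.85 in ileum under vancomycin, a difference of -0.72 (SE 0.49, adjusted p = 0.388). Its ileum arrays read just above the colon arrays. Nr0b2 (-0.35, adjusted p = 0.659) and Osgin1 (-0.30, adjusted p = 0.269) were not called either. Without antibiotic both were called, at -2.25 and -0.92, but their differences between treatments did not pass (adjusted p = 0.342 and 0.48). In the mice without antibiotic 9 genes of the list were higher in ileum and 2 in colon, with a median of -2.19 against -0.70 under vancomycin.

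Ion and water transport leaned to the colon, with 16 of 34 genes higher there, 6 higher in ileum and a median of 1.29. Car2, a cytosolic carbonic anhydrase, was at 14.37, 14.15 and 14.04 in colon and 8.37, 7.52 and 6.94 in ileum (6.58, SE 0.27, adjusted p = 7.25e-10). The sodium and proton exchanger Slc9a3 was at 14.5, 13.62 and 15.27 in colon and 8.8, 9.96 and 9.93 in ileum (4.90, SE 0.41, adjusted p = 1.22e-06). The colonic proton pump Atp12a (5.40), the chloride channel Ano1 (4.18), the epithelial sodium channel subunit Scnn1a (3.79), the chloride and bicarbonate exchanger Slc26a3 (1.47) and the mineralocorticoid receptor Nr3c2 (1.39) were also higher in colon. Slc26a6, another anion exchanger, was the reverse of Slc26a3, at 8.09, 8.19 and 7.94 in colon and 13.21, 14.15 and 14.26 in ileum (-5.80, SE 0.22, adjusted p = 3.33e-10). Guca2b, the hormone uroguanylin (-2.20), and Clca4b (-4.76) were higher in ileum.

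The families behind these functions were divided between the regions. Among 16 carbonic anhydrases, Car1, Car2 and Car4 (2.19) were higher in colon and Car3 (-5.38), Car5b (-3.74), Car12 (-1.65), Car13 (-1.24) and Car14 (-0.75) in ileum. Car3 is an abundant gene of fat cells. Among 11 aquaporins, Aqp4 and Aqp8 were higher in colon and Aqp7 (-5.93), Aqp11 (-2.69), Aqp1 (-2.10) and Aqp3 (-1.68) in ileum. Aqp4 read 14.53, 14.08 and 14.1 in colon and 7.11, 7.28 and 6.58 in ileum, and Aqp7, which also carries glycerol, read 7.74, 7.79 and 7.88 in colon and 12.2, 14.43 and 14.57 in ileum, with replicate 11 lowest. Car14 and Aqp3 lost their calls in the fit of the 6 arrays alone (adjusted p = 0.0624 and 0.0516).

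Genes that take up and burn short-chain fatty acids, the products of bacterial fermentation, gave 5 of 14 higher in colon and 2 in ileum. Acsm3, which activates butyrate, was at 13.77, 14.09 and 13.72 in colon and 10.13, 9.26 and 9.32 in ileum (4.29, SE 0.30, adjusted p = 1.78e-07). The monocarboxylate carrier Slc16a1 (1.31) and the acetate enzyme Acss2 (1.20) were also higher in colon, and the lactate carrier Slc5a12 in ileum (-4.78). The calls of Slc5a8 (0.87), Ffar3 (0.61) and Hcar2 (-0.63) were small, and each was lost in the fit of the 6 arrays. Slc5a8 (0.59, adjusted p = 0.132) and Hcar2 (-0.54, 0.0525) also lost the call without ileum replicate 11. Ffar3 also lost it with the replicate number as a block (adjusted p = 0.0621). The count in colon was 3 without colon replicate 13 or 14 or ileum replicate 13. Of 18 genes of fatty acid oxidation and its PPAR control, 8 were higher in ileum, among them Angptl4 (-2.13), Ehhadh (-1.67) and Ppara (-1.57), and 1 in colon, Pparg (2.05).

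Xenobiotic metabolism was split, with 8 of 38 genes higher in colon and 16 in ileum and a median of -0.91. Beside Cyp2d34, the colon had more of the peroxisomal oxidase Hao2, at 15.4, 14.94 and 14.67 against 8.32, 9.48 and 8.97 in ileum (6.08, SE 0.26, adjusted p = 9.88e-10), and of the sulfotransferase Sult1a1 (3.77), Cyp2c55 (3.65), the alcohol dehydrogenase Adh1 (3.06) and the glutathione transferases Gstm1 (1.59) and Gstm3 (1.54). The ileum had more of Cyp4f14 (-7.44), Cyp3a25 (-4.93), Cyp2d26 (-4.15), Cyp3a11 (-4.14), Sult2b1 (-4.55), Fmo5 (-3.32) and the efflux pump Abcg2 (-2.12). Cyp3a25 read 6.23, 6.57 and 6.93 in colon and 10.61, 11.75 and 12.17 in ileum.

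**Figure D2:**
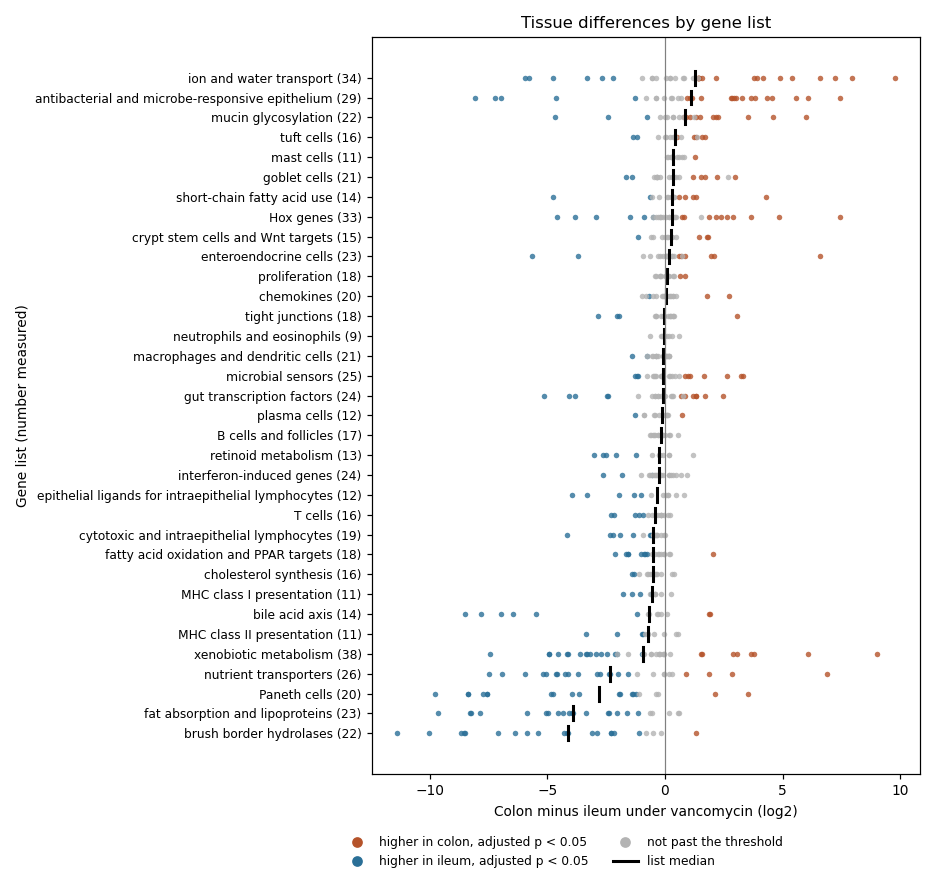
Colon minus ileum difference under vancomycin (log2, x axis) of every measured gene of 34 lists (y axis, number measured in brackets), with colour for direction where the adjusted p was under 0.05, grey otherwise, and a black bar at the list median. Medians run from -4.13 for brush border hydrolases to 1.29 for ion and water transport, and most lists hold genes on both sides of 0.

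Paneth cell genes marked the ileum. Of 20 measured, 15 were higher in ileum and 2 in colon, with a median of -2.81, and 11 of the 15 were defensins. Lyz1, the Paneth cell lysozyme, was at 9.45, 9.54 and 10.19 in colon and 15.3, 14.05 and 14.32 in ileum (-4.83, SE 0.29, adjusted p = 3.21e-08). The defensin-activating protease Mmp7 differed by -4.77. The mean over the 20 genes was 12.97 in ileum replicate 11, 11.76 in replicate 13 and 11.59 in replicate 14, against 8.52 to 8.61 in colon. The pentraxins Mptx1 (3.53) and Mptx2 (2.11) were higher in colon, and Mptx2 lost its call in the fit of the 6 arrays (adjusted p = 0.0587). The ribonuclease Ang4 differed by -0.39 (adjusted p = 0.682).

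Goblet cell genes did not run together. Of 21, 5 were higher in colon and 2 in ileum. The mucin Muc2 differed by -0.23 (adjusted p = 0.475), while the secretory regulator Creb3l1 was at 14.23, 13.72 and 12.9 in colon and 10.57, 10.71 and 10.65 in ileum (2.97, SE 0.26, adjusted p = 1.63e-06). Ern2 (1.53), Sval1 (2.21), Klk1 (1.20) and Muc4 (1.70) were higher in colon. Zg16, a lectin of the mucus that binds Gram-positive bacteria, was higher in ileum, at 17.17, 17.49 and 17.44 against 15.97, 16.36 and 14.85 in colon (-1.64, SE 0.29, adjusted p = 0.00138), as was the trefoil peptide Tff3 (-1.39). Colon replicate 14 was the lowest array for Creb3l1 among colon arrays and for Zg16, and without it 8 genes of the list were higher in colon.

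The enzymes that build mucin sugars leaned to the colon, with 11 of 22 higher there and 3 in ileum. Fut2, which adds terminal fucose, was at 11.74, 11.94 and 10.77 in colon and 5.46, 5.58 and 5.44 in ileum (5.99, SE 0.37, adjusted p = 4.63e-08). B3gnt7 (4.60), the sialyltransferase St6galnac1 (3.55), Gcnt1 (2.24) and the sulfotransferase Chst4 (2.16) were higher in colon. Gcnt4, a branching enzyme, was at 5.46, 4.72 and 5.24 in colon and 9.5, 9.75 and 10.22 in ileum (-4.68, SE 0.21, adjusted p = 2.2e-09). B4galnt2 (-0.75) and Gcnt3 (-2.43, adjusted p = 0.0101) were also higher in ileum, and Gcnt3 lost its call without colon replicate 14 (-1.83, adjusted p = 0.0538) and in the fit of the 6 arrays (adjusted p = 0.0637).

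Of 23 enteroendocrine genes, 6 were higher in colon and 2 in ileum. Nts, neurotensin, was at 6.11, 5.43 and 5.88 in colon and 10.8, 11.67 and 11.94 in ileum (-5.66, SE 0.38, adjusted p = 1.33e-07), and secretin Sct differed by -3.68. Insl5, peptide YY (Pyy, 2.07) and Tac1 (1.97) were higher in colon. Among 16 tuft cell genes 5 were higher in colon and 2 in ileum, but 1 was higher in colon without colon replicate 11 or 14, 2 without ileum replicate 13 and 3 without ileum replicate 14. Of the tuft genes, the prostaglandin D synthase Hpgds (1.69) and Plcg2 (-1.34) passed with any of the 6 arrays left out. Crypt stem cell and Wnt genes gave 3 of 15 in colon, Ephb3 (1.78), Lrig1 (1.82) and Prom1, and 1 in ileum, Axin2 (-1.14). Over all probe sets 7.45% were higher in colon and 7.67% in ileum. Proliferation genes gave 2 of 18 in colon, near that share, Tyms (0.85) and Mcm6 (0.62). In the fit of the 6 arrays the count was 1, and Mcm6 lost its call (adjusted p = 0.109). It was also 1 without colon replicate 13 or ileum replicate 14. Mki67 differed by 0.36 (adjusted p = 0.446). Of 18 tight junction genes, Cldn8, a sodium barrier, was higher in colon (3.06), and Cldn4 (-2.84) and the pore-forming claudins Cldn15 (-2.03) and Cldn2 (-1.95) were higher in ileum. Without ileum replicate 11 the number higher in ileum was 5.

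Of 29 genes that respond to or act on bacteria, 16 were higher in colon, 5 in ileum and 8 were not called, with a median of 1.09. Reg3b was at 8.06, 6.9 and 7.91 in colon and 15.56, 15.85 and 15.73 in ileum (-8.09, SE 0.44, adjusted p = 1.31e-08). Reg3g, a lectin that kills Gram-positive bacteria, differed by -7.24 and Reg3a by -6.97, so the ileum held the high values of all 3 while the mice drank vancomycin. The other genes higher in ileum were the tryptophan-degrading enzyme Ido1 (-4.63) and Nos2, the inducible nitric oxide synthase (-1.26, adjusted p = 0.0331). Nos2 lost its call in the fit of the 6 arrays and without colon replicate 11 or 14 or ileum replicate 13 or 14 (-1.01 to -1.20).

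On the colon side, Nox1, the superoxide source of colonic epithelium, was at 11.22, 12.6 and 11.86 in colon and 6.25, 6.39 and 6.34 in ileum (5.57, SE 0.33, adjusted p = 3.08e-08), and its activator Noxa1 differed by 3.04. Saa1 was at 13.64, 14.33 and 14.79 in colon and 6.42, 6.93 and 7.05 in ileum (7.45, SE 0.56, adjusted p = 3.96e-07). Retnlb, a goblet cell protein that acts on Gram-negative bacteria, was at 14.74, 12.07 and 11.72 in colon and 9.81, 10.21 and 9.96 in ileum (2.85, SE 0.65, adjusted p = 0.00773). Colon replicate 11 stood well above the other colon arrays for Retnlb, and the tissues did not overlap. The gasdermins Gsdmc2, Gsdmc3 and Gsdmc4 (3.81, 4.33 and 3.67), the maturation factor Duoxa2 (2.95), the flagellum-binding Lypd8 (1.55) and the antibody transporter Pigr (1.16) were higher in colon too. Of 25 microbial sensors, 7 were higher in colon, led by Tlr1 (3.31), Tlr4 (3.24), Cd14 (2.65) and Tlr2 (1.66), receptors of the bacterial surface. Tlr1 read 12.28, 12.95 and 12.35 in colon and 9.88, 9.06 and 8.71 in ileum. The inflammasome genes Naip5 (-1.16), Naip6 (-1.17) and Nlrc4 (-1.26), which sense flagellin and secretion systems, were higher in ileum.

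Antigen presentation and lymphocyte genes lay towards the ileum, and most were not called. Of 11 MHC class I genes, 5 were higher in ileum and 0 in colon. Psmb9, an immunoproteasome subunit, was at 11.4, 11.23 and 11.36 in colon and 13.12, 13.17 and 13.09 in ileum (-1.80, SE 0.23, adjusted p = 6.83e-05), Psmb8 differed by -1.41 and H2-D1 by -1.08. The count was 3 without colon replicate 13 or ileum replicate 14, and Psmb10 (-0.57) lost its call with the replicate block (adjusted p = 0.0823) and in the fit of the 6 arrays (0.0874). Of 11 MHC class II genes, 4 were higher in ileum. H2-DMa (-3.34) and H2-Ab1 (-2.04) held in each leave-one-out fit, while H2-Aa (-0.91, adjusted p = 0.0222) and H2-Eb1 (-0.98, adjusted p = 0.0493) lost the call with the replicate block (0.0614 and 0.0563) and without colon replicate 11 or 13 or ileum replicate 11, H2-Eb1 also without colon replicate 14 or ileum replicate 13, and both in the fit of the 6 arrays (0.12 and 0.179). Without ileum replicate 11 H2-Aa differed by -0.59 and H2-Eb1 by -0.53. The class II median was -0.70 with all arrays and 0.04 without ileum replicate 11. Of 24 interferon-induced genes 3 were higher in ileum, Irf7 (-2.65), Ddx58 (-1.84) and Ifit3 (-0.56). Ifit3 lost its call in the fit of the 6 arrays and without colon replicate 11 or 14 or ileum replicate 13 or 14. Over all probe sets 7.67% were higher in ileum, so 3 of 24 is not read as a result about this list. Without ileum replicate 11 the count was 3 in ileum and 2 in colon, against 10.1% of all probe sets in each direction.

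Of 19 genes of cytotoxic and intraepithelial lymphocytes, the T cells that sit between epithelial cells, 7 were higher in ileum and 0 in colon. All 19 differences were negative. Among all 19505 genes, 1502 were higher in ileum and 8740 had a negative difference. Gzma was at 5.76, 5.67 and 5.79 in colon and 8.72, 9.34 and 11.67 in ileum (-4.17, SE 0.54, adjusted p = 8.87e-05). Gzmb was at 6.2, 7.14 and 6.3 in colon and 8.24, 8.23 and 10.14 in ileum (-2.32, SE 0.42, adjusted p = 0.00161). Ileum replicate 14 was the highest array for both granzymes. Cd8b1 (-2.22), Cd7 (-1.91), Nkg7 (-1.37) and Ccl5 (-0.62) were also higher in ileum, and the difference of Cd8a was -0.93 (adjusted p = 0.0544). The epithelial butyrophilin-like ligands of these cells followed, with 5 of 12 genes higher in ileum, among them Btnl2 (-3.94) and Btnl1 (-3.31). Of 16 T cell genes 5 were higher in ileum, led by Cd3g (-2.30), Cd3d (-2.17) and Cd3e (-1.29), and 3 without colon replicate 13. Cd5 (-0.93) lost its call with the replicate block (adjusted p = 0.0654) and in the fit of the 6 arrays (0.0803), and was at -0.73 (0.0718) without ileum replicate 11. The T cell median was -0.41 with all arrays and -0.17 without ileum replicate 11. In whole tissue, fewer cells of a type and less RNA per cell cannot be told apart.

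Counts for markers of other cells in the wall moved with ileum replicate 11. Over all probe sets 15.1% were called, 7.45% higher in colon. Counts of 0 or 1 in lists of 9 to 18 genes are therefore not read as a result about these cells. B cell, neutrophil, endothelial, pancreatic and squamous lists gave 0 calls among 17, 9, 13, 9 and 9 genes in limma, with 0, 2, 0, 0 and 2 at an unadjusted p under 0.05. Smooth muscle gave 1 of 15 (Tagln, 0.88), enteric neurons 1 of 14 (Nos1, 0.80) and fibroblasts 1 of 18 (Col3a1, 0.88), all higher in colon, and each of these lost its call in the fit of the 6 arrays (adjusted p = 0.114, 0.0524 and 0.117). Without ileum replicate 11 the counts became 6, 7 and 4, all higher in colon, against 10.1% of all probe sets. Leaving out colon replicate 11 or ileum replicate 13 or 14 gave 0 higher in colon for all 3 lists. In the mice without antibiotic 10, 6 and 7 genes of these lists were higher in colon, against 11% of all probe sets. Smooth muscle genes averaged 13.63, 12.78 and 13.31 in colon replicates 11, 13 and 14 and 13.74, 12.77 and 12.42 in ileum. B cell genes averaged 10.22 in ileum replicate 11, 7.99 in replicate 13 and 7.52 in replicate 14, against 8.07, 8.08 and 9.04 in colon, and their median difference was -0.18 with all arrays and 0.57 without replicate 11. In ileum replicate 11 the muscle, neuron, fibroblast, endothelial, B cell and Paneth lists were at their highest of the 3 ileum arrays, while brush border hydrolases (12.53 against 13.27 and 13.54) and nutrient transporters (10.97 against 11.84 and 11.96) were at their lowest.

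Fat cell genes were higher in ileum. All 8 measured, among them Adipoq, Retn, Lep, Lipe and Plin1, passed the test, with a median of -2.81. Adipoq was at 6.81, 5.96 and 9.05 in colon and 13.74, 11.59 and 13.37 in ileum (-5.63, SE 0.73, adjusted p = 9.06e-05). The 8 genes averaged 7.85, 7.5 and 8.78 in colon and 11.68, 10.35 and 11.62 in ileum, so the tissues did not overlap. Plin4 (-1.23) lost its call in the fit of the 6 arrays and without any 1 of the colon arrays, and differed by -0.67 without ileum replicate 11. The part of adhering fat in the differences of genes that fat cells share, such as Car3, Aqp7, Cd36, Fabp4 and Angptl4, was not tested. Without antibiotic 7 of the 8 were higher in ileum as well.

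**Figure D3:**
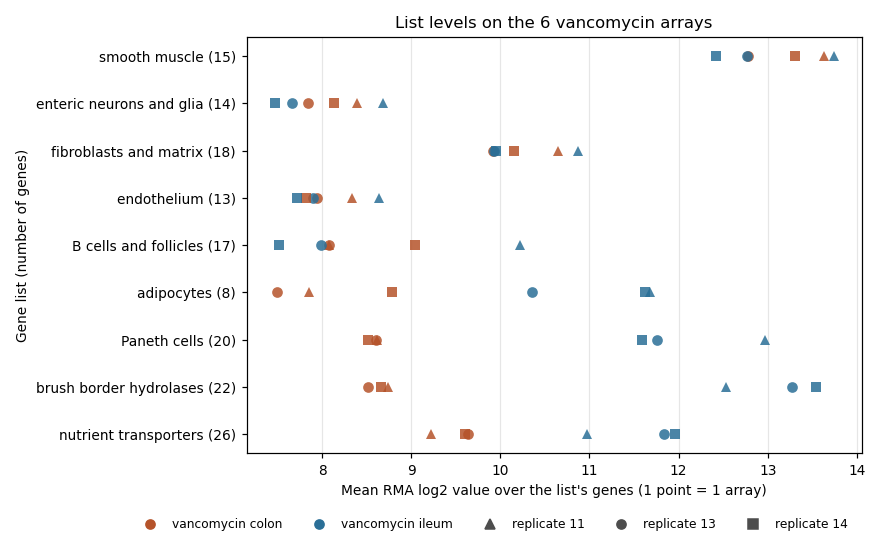
Mean RMA log2 value over the genes of each list (x axis) for 9 lists (y axis, number of genes in brackets) on the 6 vancomycin arrays, 1 point per array, with colour for tissue and shape for replicate number. Ileum replicate 11 (blue triangles) is the highest ileum array for stromal, B cell and Paneth lists, such as B cells at 10.22, and the lowest for hydrolases at 12.53 and transporters at 10.97.

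Leaving out ileum replicate 11 raised the number of calls, although an array fewer was used. With it left out, 3948 probe sets (20.2%) passed, 1973 (10.1%) higher in colon and 1975 (10.1%) in ileum. Of the 2961 calls of all 6 arrays, 2747 remained in the same direction, 214 were lost and 0 changed sign, and 1201 were gained, 645 towards colon and 556 towards ileum. Of the 1600 calls with a difference of at least 1, 1570 remained. The largest differences moved little. Naaladl1, Cubn, Car1 and Cyp2d34 kept their places among them, with Car1 at 9.79 and Cyp2d34 at 9.03, while brush border genes moved slightly further towards ileum, Sis to -8.89 and Npc1l1 to -8.89, and Paneth genes slightly less far, Defa34 to -9.06 and Lyz1 to -4.46.

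Most of the regional pattern was also present without antibiotic, in arrays that are not part of this comparison. There 4020 probe sets (20.5%) passed, 2144 (11%) higher in colon and 1876 (9.59%) in ileum, and 32.2% of all probe sets did not overlap between the tissues. Both comparisons called 2189, which is 73.9% of the calls under vancomycin and 54.5% of those without, and 2185 of them had the same direction. Of the 1600 calls of at least 1 under vancomycin, 1431 were called in the same direction without it. Across all probe sets the tissue differences correlated at 0.882, a description over genes, which are not independent replicates. The 4 genes called in opposite directions were Capn3 (0.57 under vancomycin, -0.62 without), Zc3h12a (0.70 and -1.17), Hsd3b3 (-2.21 and 2.25) and Slc36a4 (-1.07 and 0.91), with adjusted p between 0.0338 and 0.0462 under vancomycin. All 4 lost that call in the fit of the 6 arrays (adjusted p from 0.0591 to 0.131), Hsd3b3 also with the replicate block (0.0726), and Slc36a4 differed by -0.65 without colon replicate 13. Without ileum replicate 11 Capn3 (0.50, adjusted p = 0.0866) and Slc36a4 (adjusted p = 0.0615) were not called. Only Zc3h12a among them passed the test of the difference between the treatments (1.87, adjusted p = 0.0257). Saa1 differed by 7.45 under vancomycin and 3.71 without, and the difference of 3.74 did not pass (adjusted p = 0.0956).

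**Figure D4:**
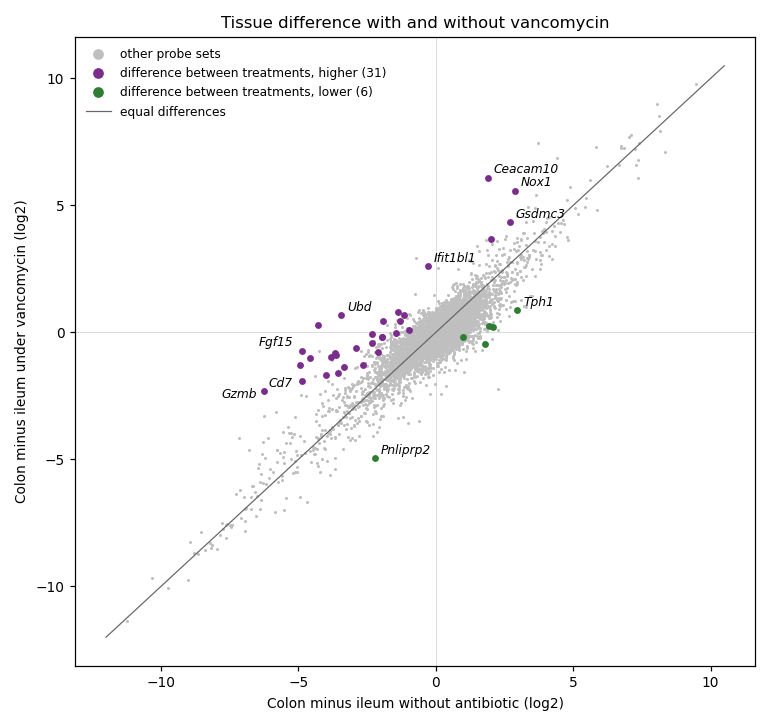
Colon minus ileum difference without antibiotic (log2, x axis) against that under vancomycin (log2, y axis) for 19572 probe sets, 1 point each, with the line of equal differences and the 37 probe sets past the threshold for the difference between treatments in purple (31 higher under vancomycin) and green (6 lower). Most points lie along the line, and most purple points lie below 0 on the x axis and nearer to 0 on the y axis.

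The tissue difference itself changed with vancomycin for 37 probe sets (0.189%) by the interaction contrast in limma, 31 upwards (0.158%) and 6 downwards (0.0307%). For all 31 upward genes the vancomycin ileum arrays lay below the untreated ileum arrays with no overlap, and for 25 of them the colon arrays of the treatments overlapped. For 30 of the 31 the change was larger in ileum than in colon. The genes were picked by the contrast on these same values, and the matching shares over all probe sets were not counted. These counts, and those of the downward genes below, therefore only describe the picked genes. The count was 84 (0.429%) without vancomycin ileum replicate 11, with all 37 among them, and 23 with the replicate block. It fell to 12 without vancomycin colon replicate 13 or no-antibiotic ileum replicate 3, to 17 without vancomycin colon replicate 14 or no-antibiotic colon replicate 1, to 18 without no-antibiotic ileum replicate 1, and to 21 and 23 without no-antibiotic colon replicates 5 and 2. Each such fit has fewer arrays.

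Ceacam10, a carcinoembryonic antigen family gene, had the smallest p. It read 14.56, 14.63 and 14.14 in vancomycin colon and 8.43, 8.71 and 7.92 in vancomycin ileum, a tissue difference of 6.09. Without antibiotic it was at 14.87, 14.14, 14.17 and 14.61 in colon and 12.69, 12.49 and 12.47 in ileum, a difference of 1.90. The colon arrays overlapped between treatments, the ileum arrays did not, and the tissue differences differed by 4.19 (SE 0.32, adjusted p = 6.81e-05). Nox1 followed this form, with 5.57 under vancomycin and 2.88 without (2.69, adjusted p = 0.0339). Gsdmc3 had 4.33 and 2.69 (1.64, adjusted p = 0.0353), and its colon arrays did not overlap between treatments either. Unlike Ceacam10, both genes lost this call in several fits with 1 array left out. The adjusted p there ran from 0.0557 to 0.121 for Nox1 and from 0.0508 to 0.117 for Gsdmc3.

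For other genes the tissue difference lay towards the ileum in untreated mice and nearer to 0 under vancomycin. Ubd, a ubiquitin-like gene induced by interferon-gamma, was at 8.32, 6.93 and 8.35 in untreated ileum and 4.38, 4.06 and 4.09 in vancomycin ileum, against 4.26, 5.09 and 5.2 in vancomycin colon. Its tissue difference was -3.44 without and 0.67 with vancomycin (4.11 apart, SE 0.45, adjusted p = 0.00304). Nos2 was at 8.42, 9.43 and 9.28 in vancomycin ileum and 12.52, 12.76 and 12.35 in untreated ileum, with tissue differences of -1.26 and -4.93 (3.67, SE 0.51, adjusted p = 0.0108). Tap1, the peptide transporter of MHC class I, had -0.62 and -2.88 (2.26, adjusted p = 0.0101), and Gml -0.05 and -2.33 (2.28, adjusted p = 0.0108). Fgf15 was at 8.06, 10.45 and 10.56 in untreated ileum and 5.64, 6.54 and 5.85 in vancomycin ileum, so its tissue difference was -4.88 without and -0.72 with vancomycin (4.17, SE 0.66, adjusted p = 0.0241).

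Of 19 genes of cytotoxic and intraepithelial lymphocytes 5 were among the 37. The T cell list (16 genes) and the B cell list (17 genes) gave 0. With 0.189% of all probe sets called, 0 in lists of this size is no contrast with the cytotoxic genes. The median difference between treatments was 0.297 for T cell genes, -0.58 for B cell genes and -0.00417 for all genes. Cd7 was at 9.49, 8.95 and 10.35 in vancomycin ileum and 12.21, 12.2 and 12.06 in untreated ileum, while its colon values lay between 7.17 and 7.98 in both treatments. Its tissue difference was -1.91 under vancomycin and -4.87 without (2.96, SE 0.36, adjusted p = 0.00687). Nkg7 had -1.37 and -3.33 (1.96, adjusted p = 0.0101), Gzmb -2.32 and -6.24 (3.91, adjusted p = 0.0154) and Cd244a -0.40 and -2.32 (1.92, adjusted p = 0.00766). H2-Eb1 had -0.98 and -3.80 (2.82, adjusted p = 0.0165) and the interferon-induced GTPase Igtp -1.01 and -4.56 (3.55, adjusted p = 0.0368). Of the 29 antibacterial and microbe-responsive genes 5 were among the 37 (Ceacam10, Gsdmc3, Nos2, Nox1, Ubd). The 5 cytotoxic genes were Cd244a, Cd7, Gzmb, Itgae (1.76, adjusted p = 0.0182) and Nkg7. Over all probe sets the share was 0.189%, but the lists were chosen with earlier results of these data known. These counts are therefore no test of enrichment.

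The 6 downward genes were Tph1, Tagln2, Pde8a, Cd248, Ly6g6c and Pnliprp2. Tph1, which makes serotonin in enterochromaffin cells, was at 9.34, 8.92 and 8.59 in vancomycin colon and 8.12, 8.24 and 7.89 in vancomycin ileum (0.87), with a tissue difference of 2.97 without antibiotic (-2.10, SE 0.33, adjusted p = 0.0184). Pnliprp2, a lipase, was at 8.34, 7.75 and 7.48 in vancomycin colon and 13.53, 12.47 and 12.46 in vancomycin ileum (-4.96), against -2.23 without antibiotic (-2.74, SE 0.50, adjusted p = 0.0442). For 5 of the 6 the ileum arrays were higher under vancomycin with no overlap, and for 4 of the 6 the change was larger in colon. Of the 23 interaction genes named in the text, Ceacam10, Ubd, Cd7, Tap1, Nkg7, Gml and Nos2 passed in every alternative fit and with any 1 array left out. With the replicate block Cd244a (adjusted p = 0.0677), Gzmb (0.0606), H2-Eb1 (0.051), Gsdmc3, Ifit1bl1, Pde8a, Tagln2 and Tph1 lost the call. Fgf15 lost it without no-antibiotic colon replicate 1 or 5, vancomycin colon replicate 13 or 14, no-antibiotic ileum replicate 3 or vancomycin ileum replicate 14, Gzmb without no-antibiotic ileum replicate 1 or vancomycin colon replicate 13, and Itgae without no-antibiotic ileum replicate 3 or vancomycin colon replicate 13. Without vancomycin ileum replicate 11 all 23 passed.

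**Figure D5:**
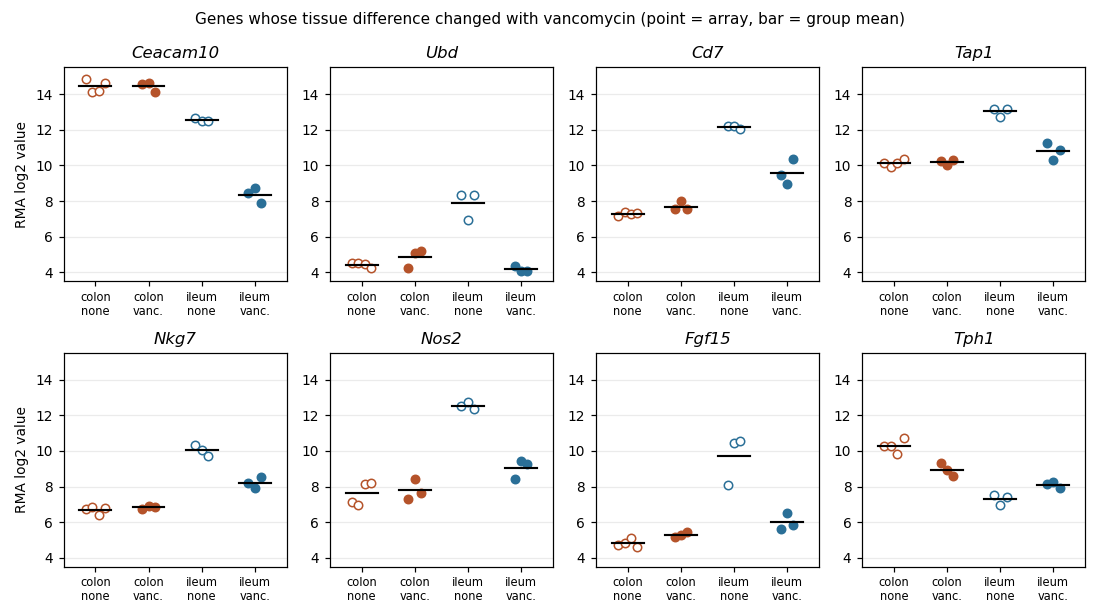
RMA log2 value (y axis) of 8 genes whose tissue difference changed with vancomycin, in the 4 groups of tissue and treatment (x axis, none for no antibiotic and vanc. for vancomycin), 1 point per array with a bar at the group mean. In 7 of the 8 the vancomycin ileum arrays lie below the untreated ileum arrays, as for Ceacam10 at 7.92 to 8.71 against 12.47 to 12.69, and Tph1 is the exception.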

How the data were processed

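Biotin-labelled RNA was measured on Affymetrix 1-colour arrays. The authors deposited log2 values, for which the submitters' processing notes name RMA and, in version 1.4.1.46, Affymetrix Expression Console, and these values were used unchanged. No depth exists for arrays, and their number limits the precision. Platform annotation and a RefSeq table of GRCm38.p6 named 19572 probe sets (19505 genes). For the 55 genes with several, the probe set with the highest mean stood for the gene. The 13 arrays entered 1 limma model (version 3.58.1, in R 4.3.3) of 4 group means with moderated variances and 9 residual degrees of freedom. Benjamini-Hochberg adjustment ran over all 19572 probe sets, with a threshold of 0.05. Errors are standard errors of that fit.

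The comparison, its gene lists (46 lists, 806 of 877 entries matched) and the naming rule were chosen with earlier results of these data known. The rule took the 12 largest differences per direction without overlap, predicted genes left out (1, towards colon), up to 8 members per list by p, a fixed set, and 8 interaction genes per direction (predicted genes left out, 1). Other genes named were chosen after their values were seen. Alternatives were a fit of the groups compared alone, the replicate block, array weights, leaving out the dimmest 33.3%, trend and robust eBayes, a further quantile normalization and leaving out each array. Deviations of same-numbered vancomycin arrays from their group means correlated at 0.236, 0.176 and 0.107. Unlike-numbered vancomycin arrays ranged from -0.227 to 0.149, which lies above 1 of the same-numbered values. Without antibiotic the same-numbered values were 0.0754, 0.0302 and -0.0162, and an unlike-numbered pair reached 0.162. With so few arrays this check cannot decide whether the numbers mark pairs. The procedure was also run on simulated data with independent noise of equal spread in all groups. That setting is simpler than these data, and no conclusion is drawn from it.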

Additional observations from a re-analysis of the deposited data

Results flagged for a closer look

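The tissue difference under vancomycin departed from that without antibiotic, by the interaction contrast in limma at an adjusted p under 0.05, for the following named genes. The value is the colon minus ileum difference under vancomycin minus the same difference without antibiotic, on the log2 scale. Among genes of the antibacterial and bile acid lists it was 4.19 for Ceacam10, 4.11 for Ubd, 3.67 for Nos2, 2.69 for Nox1, 1.64 for Gsdmc3 and 4.17 for Fgf15. Among lymphocyte genes it was 2.96 for Cd7, 1.92 for Cd244a, 1.96 for Nkg7, 1.76 for Itgae and 3.91 for Gzmb. For antigen presentation and interferon-induced genes it was 2.26 for Tap1, 2.82 for H2-Eb1, 3.55 for Igtp and 2.89 for Ifit1bl1, whose tissue difference was 2.60 under vancomycin and -0.28 without. For Gml it was 2.28, and for the ribonuclease Zc3h12a 1.87. In the other direction it was -2.10 for Tph1, -1.16 for Tagln2, -1.86 for Pde8a, -2.25 for Cd248, -1.71 for Ly6g6c and -2.74 for Pnliprp2.

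Cd248, a gene of stromal cells, was at 9.07, 7.96 and 8.9 in vancomycin colon and 9.66, 8.52 and 9.1 in vancomycin ileum, with tissue differences of -0.45 under vancomycin and 1.80 without. All 6 downward genes lost the call when single arrays were left out. Without vancomycin colon replicate 14, 13 of the 23 genes did (adjusted p from 0.0665 to 0.172), without no-antibiotic ileum replicate 3 it was 14 (0.0627 to 0.163), and without vancomycin colon replicate 13 it was 13 (0.0588 to 0.14). Without no-antibiotic colon replicate 1 or no-antibiotic ileum replicate 1 it was 12 each, and without vancomycin ileum replicate 13 or 14 it was 10 each. The sizes of the genes that lost the call in these fits ranged from 0.848 to 1.07 times those with all arrays.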

How the results depend on the processing

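The colon minus ileum comparison under vancomycin gave 2961 calls, and of the 238 list and named genes called in it 0 changed direction in any alternative. A fit of the 6 arrays alone gave 1875 calls, 1849 of them shared, array weights gave 4903 (2895 shared), and leaving out each array gave 2192 to 3948. With the replicate block the count was 2923 (2616 shared), without the dimmest 33.3% 2881, with trend and robust eBayes 2955 and after a further quantile normalization 3160. Calls of at least 1 ranged from 1379 to 1972 around 1600, and the calls without antibiotic from 2910 to 5421 around 4020. The 37 differences between treatments became 23 with the replicate block, 191 with array weights and 12 to 84 with each array left out. Array weights counted vancomycin ileum replicate 11 at 0.302 and replicate 13 at 3.79. The cause of these shifts was not tested. The leave-one-out fits used fewer arrays, and the highest of their counts, 3948 and 84, came without vancomycin ileum replicate 11. Of these 238, 189 passed in every alternative, 197 with any of the 6 arrays left out and 230 with the replicate block. The block ended the calls of Cd5, Ffar3, Gnat3, H2-Aa, H2-Eb1, Hsd3b3, Psmb10 and Siglecf. Gnat3 and Siglecf also lost the call in the fit of the 6 arrays (adjusted p = 0.105 and 0.108). Without ileum replicate 11 Gnat3 lost it too (0.79, adjusted p = 0.086). Of the 23 interaction genes 7 passed in every alternative and 15 with the block.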
